A study of Mus musculus with 2 samples.

Results

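The mesenchymal cells described here were segmented cells of embryonic mouse head sections that carried transcripts of *Dcn*, *Efemp1* and *Osr1*. They were chosen by measured counts. A cell with at least 20 panel transcripts was taken when *Dcn*, *Efemp1* and *Osr1* together reached at least 3 counts and at least 3% of its transcripts, and when this sum exceeded that of *Thbs2*, *Shisa3*, *Hhip* and *Col14a1*, 4 genes of a second connective tissue class. The rule took 14964 of the 156481 cells over the minimum, out of 218537 segmented cells. Of the 14964 cells, 4287 lay in control and 10677 in the *Dnmt1* knockout (KO) section. The levels of these 7 genes in the cells are therefore a description of the choice and not a result.

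The study was a pilot that compared 1 KO section with 1 control section by MERFISH, an in situ method that reads the barcode of each RNA molecule over rounds of imaging. Both sections were coronal, 10 µm thick and cut from flash-frozen whole heads at E16.5, late in gestation. The control carried *Sst-Cre/tdTomato*, and the KO carried *Sst-Cre/tdTomato/Dnmt1 loxP2*. Both expressed Cre recombinase under the control of the somatostatin gene, and Cre switched on the red reporter. The KO in addition carried loxP sites in *Dnmt1*. The panel held 500 genes and 50 blank barcodes that code for no gene. *Dnmt1* was not on the panel, so its loss was not measured here, and Cre acts in cells that express *Sst*. With 1 section per genotype no test was possible. Genotype, animal, section plane and imaging run cannot be told apart, and all intervals given are exact 95% intervals that cover counting error only.

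Mesenchymal cells of the fetal head build the coverings of the brain, the dermis and the skeleton. The innermost layers become the meninges, which secrete retinoic acid, bone morphogenetic proteins and chemokines toward the cortex, and the layers outside them form skull bone, cartilage and skin. *Dcn* encodes decorin, a small proteoglycan that binds collagen fibrils, *Efemp1* encodes fibulin-3, a glycoprotein of the extracellular matrix, and *Osr1* encodes an odd-skipped zinc finger transcription factor of embryonic mesenchyme. In the GRCm39 build *Dcn* lies on the plus strand of chromosome 10 from 97315275 to 97358155, *Efemp1* on the plus strand of chromosome 11 from 28803150 to 28876825 and *Osr1* on the plus strand of chromosome 12 from 9538061 to 9631513.

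The sections differed in depth. The median segmented cell held 20 panel transcripts in control and 101 in the KO section, so that 50.9% and 92.0% of the cells reached the minimum. Mesenchymal cells held a median of 57 transcripts in the control (quartiles 39 and 83) and 146 in the KO section (quartiles 94 and 214), against 33 and 105 in the other cells over the minimum. Their median volume was 1.38 times that of the other cells in control and 1.72 times in the KO section, and their DAPI signal per volume was 0.501 and 0.427 times that of the other cells. They were thus larger and less densely stained by DAPI in both sections. The sections shared 0 cell identifiers.

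*Dcn* carried the rule. It was detected in 98.9% of the mesenchymal cells of the control and in 99.7% of those of the KO section, with a median of 5 and 13 counts per cell, and supplied 84.4% and 88.1% of the summed counts of the 3 genes. It was the highest of the 3 genes in 91.6% of the control cells and 96.6% of the KO cells. *Osr1* was the highest in 4.78% and 2.05%, and *Efemp1* in 0.583% and 0.187%. How many probes each gene had was not given, so counts of different genes do not rank their RNA.

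Transcripts of *Osr1* were found in 48.6% of the mesenchymal cells of the control (interval 47.1 to 50.1) and in 57.1% of those of the KO section (56.1 to 58.0). *Efemp1* was found in 20.4% (19.2 to 21.6) and 31.9% (31.0 to 32.8). These shares depend on depth. With every cell thinned to 25 transcripts, *Osr1* was found in 28.9% of the 4062 control cells that were deep enough (27.5 to 30.3) and in 21.7% of 10614 KO cells (20.9 to 22.4), and *Efemp1* in 10.0% (9.09 to 10.96) and 9.57% (9.02 to 10.1). Both genes are part of the rule, and the cells were chosen at their unthinned depth, so that the minimum of 3 counts asked for a larger share of the transcripts in the shallower control cells. After thinning, 5.27% of the control cells and 9.18% of the KO cells held none of the 3 genes. The shares therefore do not compare the sections. All 3 genes together were seen in 2.83% and 2.64% of the thinned cells, and *Dcn* alone in 59.0% and 62.6%.

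By the choice of the rule most counts of the 3 genes lay in the mesenchymal cells. Mesenchymal cells held 83.1% of the *Dcn* counts of all cells over the minimum in control and 91.4% in the KO section, 78.3% and 86.4% of the *Osr1* counts and 73.3% and 82.7% of the *Efemp1* counts. Cells that met a rule of the same form for neuronal genes (*Slc17a6*, *Slc17a7*, *Gad1*, *Gad2* and *Tbr1*) served as background, since they should lack decorin. Thinned to 25 transcripts, 0.525% of 7043 such cells in control and 0.364% of 33821 in the KO section held *Dcn*, with unthinned median depths of 44 and 120 transcripts. The same share was 24.3% and 26.1% in the connective cells led by *Thbs2*, *Shisa3*, *Hhip* and *Col14a1*. It was 13.4% and 9.21% in endothelial cells, 19.2% and 12.8% in mural cells, and 17.8% and 9.15% in microglia and macrophages, all above the neuronal background. Cells that met the mesenchymal rule had been taken out of every class first, so these shares are lowered by the rule. Neuronal cells lay at a median of 206 and 238 µm from the nearest mesenchymal cell. The medians were 26.5 and 22.6 µm for connective, 20.4 and 18.2 µm for mural, 40.6 and 148 µm for endothelial cells and 34.8 and 102 µm for microglia and macrophages. The neuronal share therefore does not measure counts from a mesenchymal neighbour, whose part was not tested.

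The threshold cut through a continuum of levels. Levels of other genes are given as CPM, the transcripts of a gene scaled to a total of 1000000 over the panel without the 7 genes of the rule. In the KO section 788 cells lay just inside the threshold, with 3 to 4% of their transcripts from the 3 genes, and 763 just outside, with 2 to 3%. The former held 11487 CPM of *Pdgfra*, the receptor of platelet-derived growth factor in mesenchyme, and the latter 9185 CPM. In the control 93 and 56 cells lay in these ranges, with 9583 and 7962 CPM. Of the cells below the threshold, 89.3% in control and 92.3% in the KO section lay outside the brain, against 84.9% and 94.7% of those above it. The comparison with the 4 contrasted genes left out a further 319 and 666 cells, all of which lay outside the brain.

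Position was not used by the rule. The brain was outlined from 34 neural genes, starting from the area in which they made up over 20% of transcripts. Narrow strips and small parts were removed, and gaps and enclosed areas were filled, so tissue inside need not reach 20%. The distance of each cell from this outline was measured. The outlined area was 9.39 mm² (control) and 9.01 mm² (KO). The imaged tissue outside it measured 5.30 and 7.49 mm². Of the mesenchymal cells, 94.1% in the control (interval 93.3 to 94.8) and 96.5% in the KO section (96.2 to 96.9) lay outside the outline. This held for 99.6% and 98.9% of the connective cells, 63.7% and 55.6% of the mural cells, 44.4% and 36.2% of the endothelial cells and 2.45% and 1.11% of the neuronal cells. The genes of the neuronal class were among the 34 genes, so the place of these cells inside follows from the outline. All these classes hold only cells that the mesenchymal rule had not taken.

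**Figure D1:**
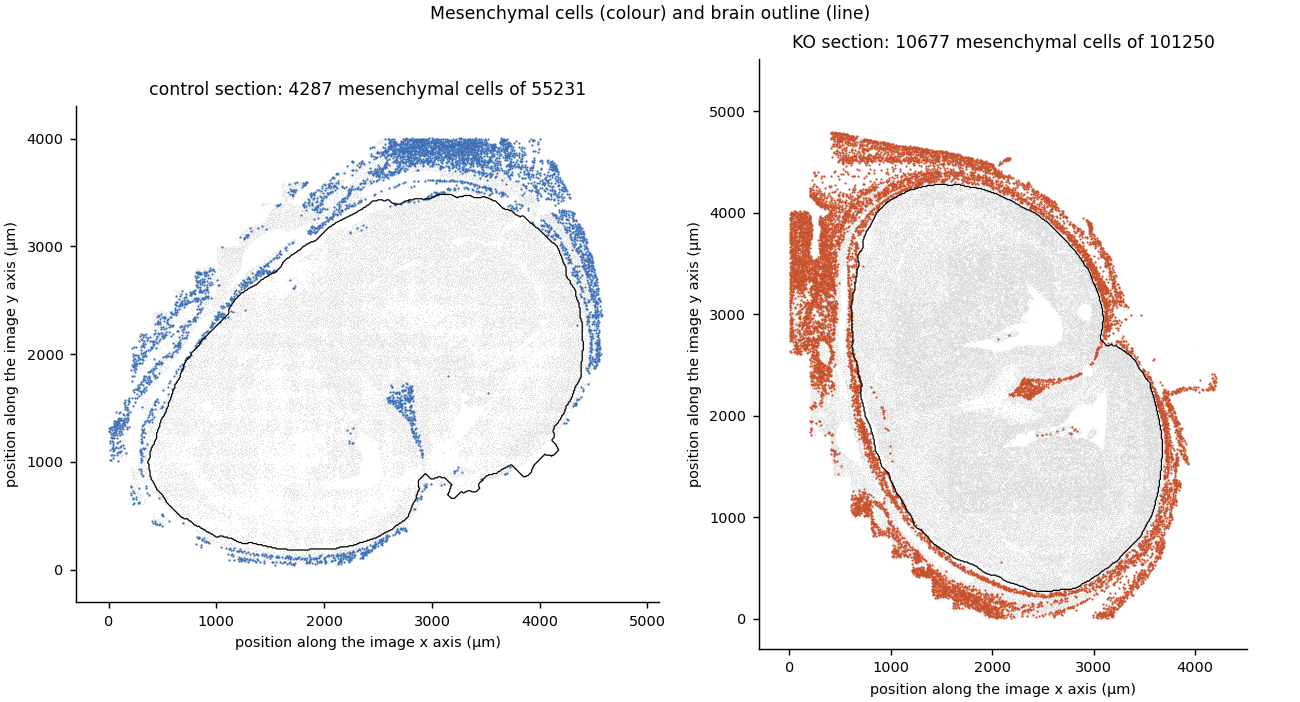
Positions of the mesenchymal cells (colour) among all cells with at least 20 panel transcripts (grey) in control and the KO section, with image coordinates in µm on both axes and the brain outline as a black line. The 4287 and 10677 mesenchymal cells formed bands around the brain, a broad outer field and, inside the outline, a wedge with a thin stalk.

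The mesenchymal cells were arranged in an inner and an outer field with a dip in their share between them. In the control their share of cells rose from 13.5% within 50 µm of the outline to 36.7% at 50 to 100 µm, was 20.9% at 100 to 150 µm and 19.4% at 150 to 200 µm, and reached 60.3% at 450 to 500 µm. In the KO section it was 41.1% within 50 µm, 56.0% at 50 to 100 µm and 31.9% at 100 to 150 µm, and then 59.9% at 300 to 350 µm, 50.7% at 450 to 500 µm and 81.4% beyond 600 µm. The dip overlapped the band where connective cells were most frequent, with 32.7% of the cells at 100 to 150 µm in control and 36.6% in the KO section. Within 50 µm of the outline connective cells made up 0.788% and 1.54%. The rule leaves out cells led by the contrasted genes, and both shares are of the same cells, so the dip follows in part from the rule. Inside the outline 0.602% of the control cells and 0.460% of the KO cells were mesenchymal.

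**Figure D2:**
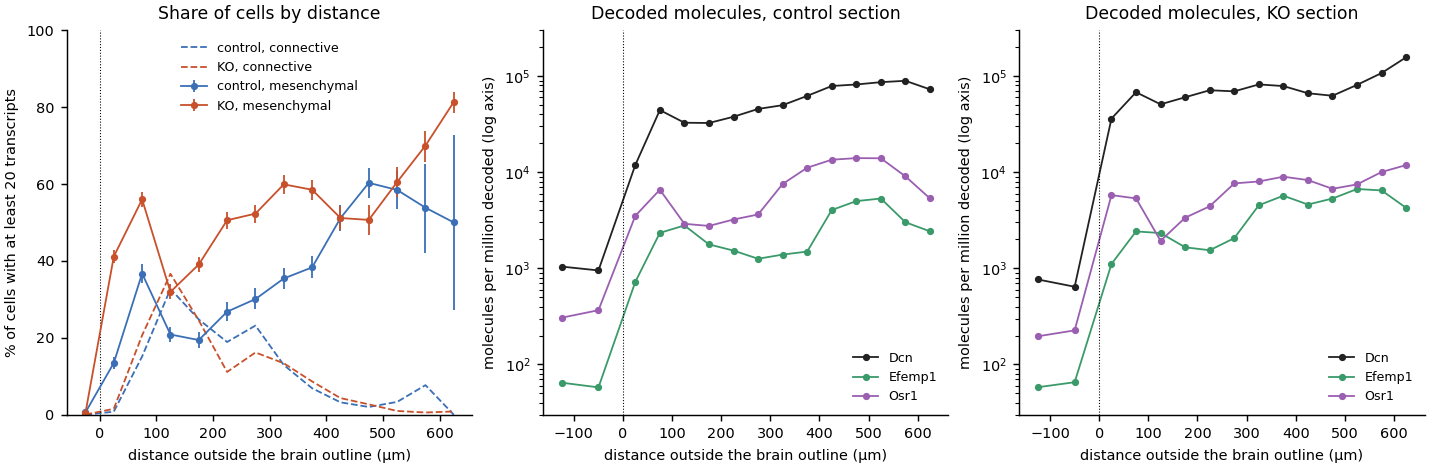
Left, share of cells with at least 20 transcripts that were mesenchymal (solid, with exact 95% intervals) or connective (dashed) against distance outside the brain outline in µm. Bands are 50 µm wide, with all cells inside the outline at the leftmost point and those over 600 µm at the rightmost. Centre and right, level of the 3 genes as CPM of all decoded molecules on a log axis, in cells or not. The mesenchymal share peaked at 50 to 100 µm and again in the outer tissue in both sections, and the connective share peaked between them.

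The decoded molecules of the 3 genes were counted in the same bands, whether or not they fell into a segmented cell. They are the genes of the rule, and most of their molecules lay in cells, so that this is a second description of the same counts. Levels are given as CPM of all decoded molecules. *Dcn* stood at 1043 CPM deeper than 100 µm in the control brain and 766 CPM in the KO brain, against 44335 and 67967 CPM at 50 to 100 µm outside it. *Osr1* fell between the fields, from 6577 CPM at 50 to 100 µm to 2762 at 150 to 200 µm in control and from 5341 to 1933 at 100 to 150 µm in the KO section, and rose to 14025 CPM at 450 to 500 µm in control and to 11867 beyond 600 µm in the KO section. *Efemp1* had its inner peak farther out in the control, with 2794 CPM at 100 to 150 µm against 2340 at 50 to 100 µm. In the KO section the corresponding values were 2328 and 2423 CPM. Of the molecules, 77.5% of *Dcn*, 78.4% of *Efemp1* and 79.0% of *Osr1* were assigned to cells in the control, against 81.4% of all molecules. In the KO section these shares were 74.8%, 74.7% and 79.6%, against 81.6% of all molecules.

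Mesenchymal cells neighboured each other. Within 50 µm of a mesenchymal cell a mean of 53.6% of the neighbouring cells over the minimum were mesenchymal in control and 68.2% in the KO section. Of all cells over the minimum 7.76% and 10.5% were mesenchymal, and of those outside the outline, where most mesenchymal cells lay, 30.9% and 49.99%. Connective cells made up 7.80% and 6.54% of the neighbours of mesenchymal cells and neuronal cells 1.05% and 2.18%. The median distance to the nearest other mesenchymal cell was 12.4 and 10.8 µm. The genes of the neuron list made up a median of 0.949% of the transcripts around mesenchymal cells in control and 1.36% in the KO section, against 11.99% and 12.7% around neuronal cells.

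The other genes of the panel were compared next. Among 259 genes with at least 50 transcripts in the mesenchymal cells of each section, 81 were at least 2-fold higher than in all other cells in both sections (31.3% of the genes tested) and 45 at least 2-fold lower (17.4%). These folds set chosen cells against the rest and are a description. Their median over the 259 genes was 0.25 in control and 0.65 in the KO section on the log2 scale. The calls thus sit on a general shift, which was larger in the KO section. The 15 genes with the highest fold were *Il33*, *Cxcl12*, *Ebf3*, *Hdc*, *Slc7a11*, *Sim1*, *Fzd4*, *Crabp2*, *Cxcl14*, *Prss12*, *Pdgfra*, *Bmp4*, *Ngfr*, *Col23a1* and *Igf2*. *Il33*, which encodes an alarmin cytokine, stood at 1827 CPM in the control cells and 2297 CPM in the KO cells, 10.8 and 15.5 times the level of the other cells. *Cxcl12*, the chemokine of the meninges that guides migrating neurons, stood at 8261 and 12856 CPM, 9.07 and 13.8 times the other cells. *Crabp2*, a carrier of retinoic acid, was 6.64 and 8.86 times as high and *Bmp4*, a bone morphogenetic protein, 5.33 and 11.7 times. *Hdc*, the enzyme that makes histamine, was 8.54 and 16.4 times as high.

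The lowest included genes of neurons. *Pou3f2*, a POU factor of upper-layer neurons and progenitors, was at 0.0224 and 0.0143 times the level of the other cells, *Tbr1*, a transcription factor of deep-layer neurons, at 0.0233 and 0.0220 times, and *Gad1*, a GABA-synthesising enzyme, at 0.0293 and 0.0440 times. *Elmod1* and *Cnr1*, the cannabinoid receptor gene, completed the 5 lowest. *Sst* itself, which drives the Cre, stood at 186 CPM in the control cells (45 transcripts) and 210 CPM in the KO cells (318 transcripts). A blank barcode averaged 78.4 and 111 CPM on this scale. *Sst* was 0.191 and 0.225 times the level of the other cells. When only cells outside the outline were compared, it was 0.710 and 0.925 times the level of the other cells.

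The label of the cells was compared with marker lists, whose counts are to be read against the 31.3% of all genes tested that were higher and the 17.4% that were lower. Of the fibroblast and matrix list, 11 of 26 genes were on the panel and 6 outside the rule could be compared, and all 6 were at least 2-fold higher in both sections, namely *Igf2*, *Pdgfra*, *Slc47a1*, *Igfbp5*, *Col15a1* and *Dlk1*. Defining fibroblast genes such as *Col1a1*, *Col1a2*, *Col3a1* and *Lum* were not on the panel. Of the neuron list 5 of 8 genes were at least 2-fold lower and 0 higher. Markers of other classes were also present. All 5 mural genes tested (*Pdgfrb*, *Cspg4*, *Acta2*, *Abcc9* and *Kcnj8*) and all 4 genes of microglia and macrophages (*Csf1r*, *Mrc1*, *C1qa* and *Cx3cr1*) were at least 2-fold higher than in the other cells of both sections, as were 5 of 9 growth factor, Wnt and hedgehog genes, 2 of 3 transforming growth factor and BMP genes and 1 of 4 endothelial genes (*Aplnr*). The summed level of the macrophage list was 19829 CPM in control and 17627 CPM in the KO cells, against 5481 and 2550 CPM in the other cells. Of the mesenchymal cells, 28.3% in control and 39.6% in the KO section also met the rule of another class. The classes were connective for 13.8% and 14.1%, mural for 7.11% and 15.03%, endothelial for 4.88% and 10.4%, microglia and macrophage for 5.34% and 5.98%, and neuronal for 0.0467% and 0.0562%. The minimum of 3 counts asked for a larger share of the transcripts in the shallower control cells, so these shares do not compare the sections. Whether the counts of other classes came from the cell itself or from a neighbour within the same segmented outline was not tested.

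Fewer genes differed when only cells outside the outline were compared. Here 29 of 247 genes were at least 2-fold higher than in the other cells of both sections (11.7%) and 14 lower (5.67%). Of the 15 genes named above, 10 kept the 2-fold difference. *Cxcl14*, a chemokine, was 3.93 and 6.40 times as high as in the other outside cells, *Sim1*, a bHLH-PAS transcription factor, 2.78 and 5.46 times, and *Il33* 3.32 and 3.37 times. *Cxcl12* was 2.76 and 3.11 times as high, *Hdc* 2.69 and 3.18 times and *Slc7a11*, the light chain of the cystine-glutamate exchanger, 2.62 and 3.34 times. *Igf2*, the fetal growth factor that made up the largest count of the panel in these cells, did not separate them from their surroundings, with 1.28 times in control and 0.964 times in the KO section. *Pdgfra* reached 1.73 and 1.82 times. *Igfbp5* was at 1.27 and 1.10 times and *Col15a1* at 0.928 and 1.13 times. Of the 6 fibroblast and matrix genes 1 (*Dlk1*, with 3.38 and 2.25 times), of the 5 mural genes 1 (*Abcc9*) and of the 4 macrophage genes 0 stood at least 2-fold higher in both sections in this comparison. *Irs4*, an insulin receptor substrate, ranked first outside the outline by the smaller of the folds of both sections, with 6.57 in control and 4.49 in the KO cells. *Irs4* and the genes of the following comparisons were named after their values were seen.

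**Figure D3:**
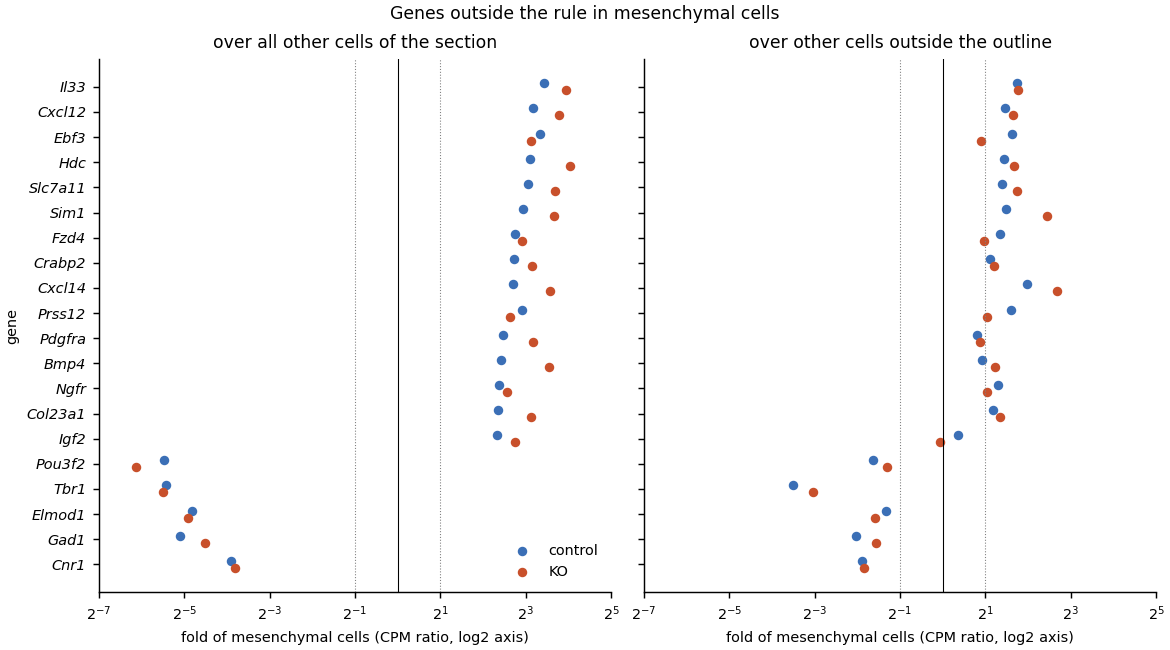
Fold of the CPM of mesenchymal cells over all other cells of the same section (left) and over the other cells outside the brain outline (right) for the 15 genes with the highest and the 5 with the lowest fold over all other cells, on a log2 axis. Dotted lines mark 2-fold in either direction. Points of the control and the KO section lie side by side, and *Igf2* moves to the line of no difference on the right.

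Against the connective cells 77 of 310 genes were at least 2-fold higher in the mesenchymal cells of both sections (24.8%) and 14 lower (4.52%). The median over these 310 genes was 0.38 in control and 0.45 in the KO section on the log2 scale, so the calls sit on a general shift. First by the smaller fold of both sections was *Slc7a11*, with 851 against 24.8 CPM in control and 1357 against 56.2 CPM in the KO section. The levels in connective cells rested on 3 and 26 transcripts and lay below that of a blank barcode in mesenchymal cells, so the size of this fold is uncertain. *Hdc* stood at 3348 against 240 CPM and 4006 against 134 CPM, *Kit*, a receptor tyrosine kinase, at 3976 against 546 CPM and 4414 against 579 CPM, and *Dlk1*, an imprinted Notch-related protein, at 3343 against 488 CPM and 1991 against 346 CPM. The macrophage marker *Csf1r* stood at 4889 against 894 CPM and 3872 against 707 CPM, and *Nnat* at 7129 against 720 CPM and 7486 against 1449 CPM. In the microglia and macrophage class *Hdc* stood at 1453 and 2541 CPM and *Kit* at 2498 and 3399 CPM, and the part of such cells in these folds was not tested. Among the 14 lower genes *Sox9*, a regulator of chondrocytes and the only gene of the cartilage, bone and muscle list on the panel, stood at 2914 against 10641 CPM in control and 2683 against 7200 CPM in the KO section. *Sox6*, a related factor, stood at 236 against 1100 CPM and 464 against 1967 CPM, *Col9a2*, a chain of cartilage collagen IX, at 628 against 2565 CPM and 683 against 2800 CPM, and *Hapln1*, the cartilage link protein, at 103 against 571 CPM and 351 against 921 CPM. Most cells of both classes lay outside the outline, 94.1% and 96.5% of the mesenchymal and 99.6% and 98.9% of the connective cells. The comparison was not limited to them. Of the *Slc7a11* transcripts of mesenchymal cells, 92 of 206 in control and 617 of 2057 in the KO section came from inside the outline.

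The mesenchymal cells were not uniform across the layers. They were divided into those inside the outline (254 in the control, 371 in the KO section), at 0 to 100 µm (816 and 2726), at 100 to 250 µm (922 and 2637) and beyond 250 µm (2295 and 4943). Between the cells at 0 to 100 µm and those beyond 250 µm, 28 of 259 genes were at least 2-fold higher near the brain in both sections (10.8%) and 54 lower (20.8%), and 0 genes moved 2-fold in opposite directions in the sections. The sign of the difference was the same in both sections for 212 of the 259 genes.

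Near the brain *Slc7a11* was high. It fell from 1952 CPM at 0 to 100 µm to 44.4 CPM beyond 250 µm in control and from 3401 to 90.6 CPM in the KO section. Both outer values lay below the mean blank barcode of mesenchymal cells there, 77.4 and 120 CPM, so the size of the fall is uncertain. *Bmp7*, a bone morphogenetic protein, fell from 26561 to 2184 CPM and from 29014 to 4884 CPM, and *Cemip*, a hyaluronan-binding protein, from 2042 to 118 CPM and from 1439 to 158 CPM. *Crabp2* had its highest level in this zone, with 11508 CPM in control and 9102 CPM in the KO section against 2628 and 2624 CPM beyond 250 µm. *Slc47a1*, an organic cation transporter of the arachnoid, stood at 583 and 498 CPM near the brain and at 126 and 214 CPM beyond 250 µm. A gene of neurons and a gene of vessels had the same gradient. *Nnat*, neuronatin, fell from 18373 to 1917 CPM and from 17281 to 2624 CPM, and *Cldn5*, the claudin of brain endothelium, from 10050 to 1880 CPM and from 15177 to 3124 CPM. *Nnat* was among the 34 genes that drew the outline, so part of its fall is built in. In the non-mesenchymal cells at 0 to 100 µm *Nnat* stood at 19041 and 22306 CPM and *Cldn5* at 16944 and 23818 CPM. The part of neighbouring cells in these values was not tested. *Bmp7* was higher in the mesenchymal cells of this zone than in the others there, which held 6892 and 5378 CPM, and so was *Slc7a11*, with 475 and 548 CPM in the others.

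The middle layer, at 100 to 250 µm, had its own peaks. *Sim1* reached 2654 CPM in control and 1542 CPM in the KO section there, against 628 and 317 CPM nearer the brain and 614 and 562 CPM beyond 250 µm. *Spon1*, F-spondin of the matrix, reached 3039 and 6967 CPM, against 920 and 2341 CPM nearer the brain and 703 and 1730 CPM beyond 250 µm. Over all cells outside the outline *Spon1* was lower in mesenchymal than in other cells, at 0.355 and 0.675 times. *Cxcl14* rose from 1324 CPM at 0 to 100 µm to 19489 CPM at 100 to 250 µm in control and from 3455 to 27316 CPM in the KO section. Beyond 250 µm *Cxcl14* was 6855 CPM in control and 26125 CPM in the KO section, so that the fall toward the outer field was larger in the control, a difference that was not tested.

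Far from the brain, *Ebf3*, a transcription factor of the early B cell factor family, was high, with 17470 CPM beyond 250 µm against 1077 CPM at 0 to 100 µm in control and 6236 against 660 CPM in the KO section. *Il33* stood at 2769 against 449 CPM and 4164 against 639 CPM, *Prss12*, neurotrypsin, at 10378 against 1144 CPM and 8016 against 1545 CPM, and *Dlk1* at 4538 against 359 CPM and 2940 against 260 CPM. *Myh8*, the perinatal myosin heavy chain of skeletal muscle, stood at 4116 against 22.4 CPM and 7295 against 77.4 CPM. The values at 0 to 100 µm rested on 1 and 30 transcripts and lay below the mean blank barcode there, 84.8 and 108 CPM. In control *Myh8* was as high at 100 to 250 µm, with 4538 CPM, and stood at 2937 CPM inside the outline, where it was at 0 in the KO section. In the non-mesenchymal cells beyond 250 µm *Myh8* stood at 13271 and 12540 CPM.

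**Figure D4:**
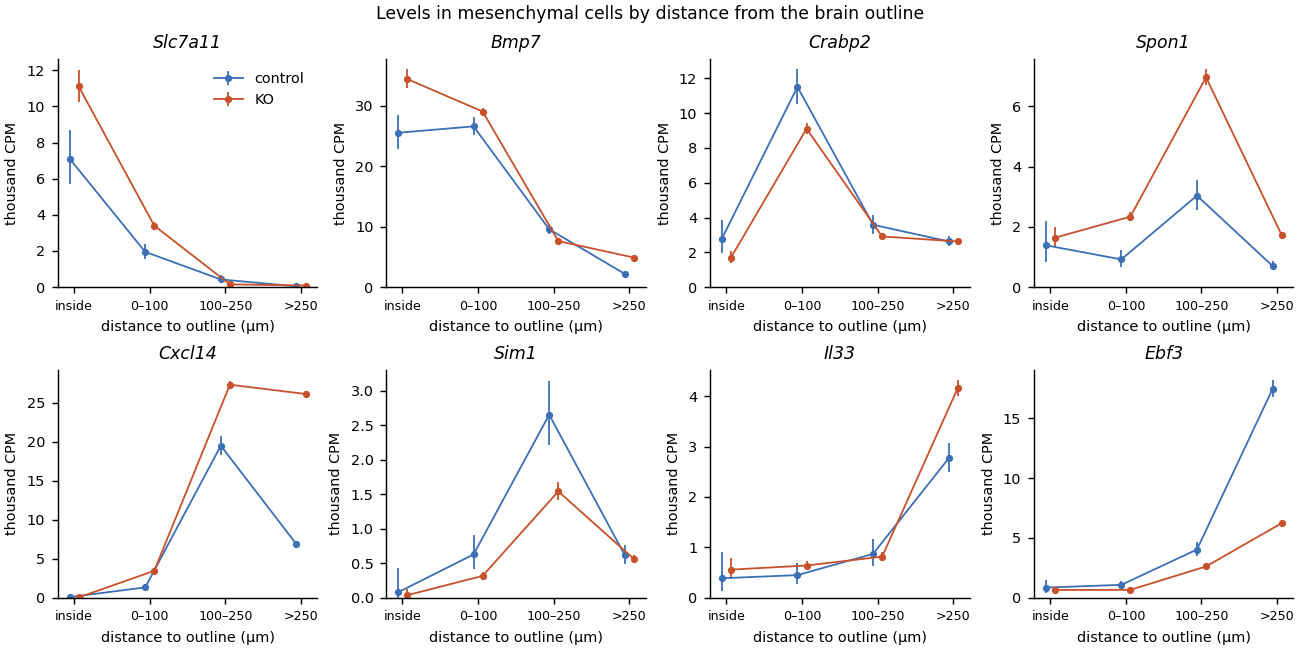
Levels of 8 genes in mesenchymal cells, in 1000 CPM without the 7 genes of the rule, inside the brain outline and at 0 to 100, 100 to 250 and over 250 µm outside it, with exact 95% Poisson intervals for the control and the KO section. *Slc7a11*, *Bmp7* and *Crabp2* were higher at 0 to 100 µm than beyond 250 µm, *Spon1* and *Sim1* peaked at 100 to 250 µm, and *Il33* and *Ebf3* were highest beyond 250 µm.

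The few mesenchymal cells inside the outline were mostly gathered in 1 place. Their position inside depended on the outline, in which gaps and enclosed areas had been filled whatever their neural share. With an outline at 30% neural transcripts, chosen after seeing the data, 99.7% of the control cells and 97.0% of the KO cells lay outside. When cells within 50 µm of each other were joined, 206 of the 254 control cells (81.1%) and 288 of the 371 KO cells (77.6%) fell into 1 group, which is the wedge on the map and spanned 760 and 757 µm. These groups held more *Slc7a11* than any zone outside the outline, with 8396 and 13130 CPM, and high levels of *Pdgfra* with 26940 and 42913 CPM and of *Cxcl12* with 14392 and 49204 CPM. *Cldn5* stood at 13193 and 27473 CPM there and *Nnat*, a gene of the outline, at 31553 and 32322 CPM. The part of endothelial and neuronal neighbours in the groups was not tested. *Crabp2* stood at 3045 and 1784 CPM. *Ccnd2*, a cyclin of cycling cells and progenitors, stood at 250484 and 118355 CPM in the groups, and *Mrc1*, the macrophage mannose receptor, at 10887 and 15761 CPM.

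The cells were also split by single genes of the rule, which follows depth as well, and a cell without *Osr1* had to pass through the other genes. Mesenchymal cells with *Osr1* were compared with those without it, 2084 against 2203 cells in control and 6093 against 4584 in the KO section. Of 259 genes 9 were at least 2-fold higher in the cells with *Osr1* in both sections (3.47%) and 12 lower (4.63%). *Sulf1*, a sulfatase that edits heparan sulfate, stood at 670 against 220 CPM in control and 913 against 328 CPM in the KO section, and *Prss12* at 8963 against 3590 CPM and 6167 against 2902 CPM. Among the genes higher in the cells without *Osr1*, *Spon1* stood at 2050 against 553 CPM in control and 6080 against 1400 CPM in the KO section, *Unc5b*, a netrin receptor, at 1452 against 600 CPM and 4566 against 1008 CPM, and *Cadm1*, an adhesion molecule, at 3282 against 1356 CPM and 11091 against 1715 CPM. The muscle genes *Myh8* and *Ttn* were also higher without *Osr1*, *Myh8* with 5411 against 1590 CPM and 5995 against 2422 CPM. The cells with *Osr1* lay farther out, at a median of 332 against 235 µm in control and 259 against 210 µm in the KO section, and were deeper, with 64 against 52 and 165 against 124 transcripts.

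The same split was made by *Efemp1*. Between the 873 control and 3407 KO cells with *Efemp1* and the 3414 and 7270 without it, 2 of 259 genes were at least 2-fold higher with *Efemp1* in both sections (0.772%) and 4 lower (1.54%). The higher genes were *Nefm*, a neurofilament chain, with 3518 against 1352 CPM and 4660 against 934 CPM, and *Irs4*, with 609 against 296 CPM and 1012 against 313 CPM. The cells with *Efemp1* held a median of 62 against 56 transcripts in control and 170 against 135 in the KO section. Whether *Osr1* and *Efemp1* differed in how they divided the cells was not tested. The lower genes included *Syt6*, a synaptotagmin, *Unc5b*, with 532 against 1130 CPM and 830 against 3215 CPM, and *Cadm1*, with 1217 against 2550 CPM and 1675 against 7294 CPM. *Unc5b* and *Cadm1* were also lower in the cells with *Osr1*. *Nefm* and *Irs4* were also at least 2-fold higher in the cells with *Osr1* in both sections. There *Nefm* stood at 2549 against 1003 CPM in control and 3185 against 762 CPM in the KO section. *Irs4* stood at 483 against 229 CPM and 757 against 245 CPM.

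Between the sections, mesenchymal cells made up 7.76% of the cells over the minimum in the control (interval 7.54 to 7.99) and 10.5% in the KO section (10.4 to 10.7). This ratio changed with the depth and the imaged field. With each KO transcript kept at a probability of 0.198, which matched the median of all segmented cells and no other measure of depth, the KO share was 9.23%. With a minimum of 50 transcripts the shares were 18.8% in control and 11.5% in the KO section, the opposite order, and among cells outside the outline they were 30.9% and 49.99%. The KO section held more tissue outside the outline. Whether the animals differed in the number of these cells cannot be told apart from the field and the depth. Over whole sections *Dcn* stood at 13203 CPM of all panel transcripts in control and 16173 CPM in the KO section, *Efemp1* at 648 and 706 CPM and *Osr1* at 2032 and 1633 CPM. For all 3 genes the direction depended on which parts of the sections were set against each other.

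The levels of the other genes in mesenchymal cells were compared between the sections over 490 genes with at least 50 transcripts in both sections together. Here 92 were at least 2-fold higher in the KO cells (18.8%) and 3 lower (0.612%). With the KO counts thinned, 39 of 353 genes were higher and 4 lower, and 34 of the 39 were among the 92. In all other cells of the same sections 22 of these genes were at least 2-fold higher (4.49%) and 13 lower (2.65%). The median over all genes was 0.41 on the log2 scale in the mesenchymal cells and 0.07 in the other cells. Over genes at 1000 CPM or more in the KO mesenchymal cells it was 0.25. Each value in mesenchymal cells is to be read against such a shift. Blank barcodes shifted alike, by 0.50 in the mesenchymal cells and 0.03 in the others on the log2 scale, and their part in the ratios was not tested. *Igf2*, the largest component of the total, stood at 218067 CPM in control and 157807 CPM in the KO cells. Leaving it out of the total lowered the median to 0.30 and the count of higher genes to 78. Of the 92 higher genes 50 stood at no more than 2 times the mean blank barcode in the KO cells, out of 213 genes tested at that level. At 1000 CPM or more stood 21, out of 136 genes tested there. *Pvalb*, named after its values were seen, was at 0 transcripts in control and 141 in the KO cells, where its 93.0 CPM lay below the 111 CPM of a blank barcode.

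Among genes at or above the median level, the 5 with the highest ratio were *Cd24a*, *Cdkn1a*, *Arhgap36*, *Gpr161* and *Adgrf5*. In control and KO mesenchymal cells *Cd24a* stood at only 0.123 and 0.0841 times the other cells and *Gpr161* at 0.303 and 0.317 times. *Cdkn1a* stood at 0.892 and 2.34 times, *Arhgap36* at 1.45 and 2.61 times and *Adgrf5* at 1.47 and 2.87 times. *Cd24a*, a surface sialoglycoprotein, stood at 827 CPM in control and 2549 CPM in the KO cells, a log2 ratio of 1.62 (interval 1.38 to 1.88). In the other cells its ratio was 2.17. *Gpr161*, an inhibitor of hedgehog signalling in the cilium, had 1.46 against 1.40 in the other cells. *Cdkn1a*, the cyclin-dependent kinase inhibitor p21, stood at 1203 and 3704 CPM, a ratio of 1.62 (1.42 to 1.83) against 0.23 in the other cells. *Arhgap36*, a regulator of protein kinase A and hedgehog signalling, stood at 579 and 1756 CPM, a ratio of 1.60 against 0.75. *Adgrf5*, an adhesion receptor known from endothelium, had 1.43 against 0.46. Cells that also met the endothelial rule made up 4.88% and 10.4% of mesenchymal cells, shares that depend on depth, and *Adgrf5* is a gene of that rule. Removing the cells that met the rule of another class therefore picked partly on *Adgrf5* itself. Without them *Adgrf5* had 0.68, *Cdkn1a* 2.002 and *Arhgap36* 1.59. These ratios varied with position. *Arhgap36* had 0.69 at 0 to 100 µm, on 4 transcripts in control, 0.82 at 100 to 250 µm and 2.14 beyond 250 µm, against 1.59, 1.08 and 1.79 in the other cells of the same zones, and ranged from 0.59 to 2.59 over pairings of section parts. *Cdkn1a* had 1.11, 1.496 and 1.81 in these zones, against 1.03, 0.67 and 1.16 in the other cells. At 0 to 100 µm *Cd24a* had 1.49 and *Gpr161* 1.36, against 1.74 and 0.95 in the other cells there. Whether mesenchymal and other cells differed in these ratios was not tested.

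The 5 lowest ratios were those of *Ebf3*, *Grik1*, *Igfbp5*, *Rxfp3* and *Elfn1*. *Ebf3* stood at 10820 CPM in control and 3704 CPM in the KO cells, a log2 ratio of −1.55 (−1.64 to −1.45) against −1.34 in the other cells. *Igfbp5*, an insulin-like growth factor binding protein, stood at 43498 and 21255 CPM, a ratio of −1.03 (−1.08 to −0.99) against −1.57. *Grik1*, a kainate receptor subunit, had −1.52 against −0.48, *Rxfp3*, the relaxin-3 receptor, −0.97 against −0.40 and *Elfn1*, a synaptic adhesion protein, −0.80 against −0.84. Close to the brain 3 of these ratios were nearer to 0, 1 was farther from 0 and 1 turned. At 0 to 100 µm from the outline *Ebf3* had −0.71, *Grik1* −0.25 and *Igfbp5* −0.53, whereas *Elfn1* had −1.07. *Rxfp3* turned to 0.52, on 4 transcripts in control and 50 in the KO cells, whose intervals of 24.4 to 229.8 and 95.7 to 170.0 CPM overlapped. Beyond 250 µm *Ebf3* had −1.49 and *Grik1* −1.62, against −1.25 and 0.12 in the other cells there. Over pairings of section parts *Ebf3* ranged from −2.24 to −0.55 and *Grik1* from −1.88 to −0.16, and *Rxfp3* changed direction, from −1.497 to 0.65.

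**Figure D5:**
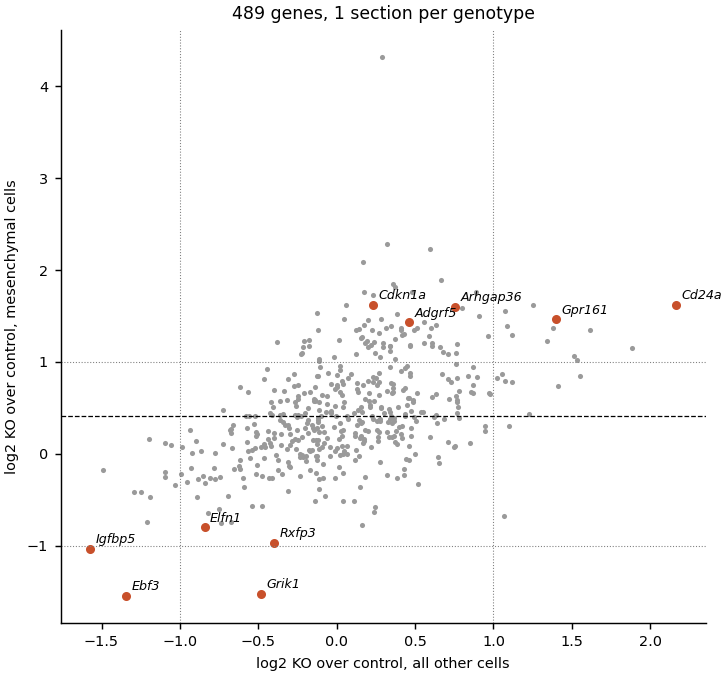
Log2 ratio of KO over control CPM in mesenchymal cells (vertical) against the same ratio in all other cells (horizontal) for genes with at least 50 transcripts in the mesenchymal cells of both sections together, without *Pvalb*, which was at 0 in the control. Dotted lines mark 2-fold, the dashed line the median of 0.41 in mesenchymal cells, and the 10 named genes are coloured. *Cd24a* and *Gpr161* were high on both axes and *Ebf3* and *Igfbp5* low on both.

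Counts by list are to be read against the 95 of 490 genes (19.4%) past 2-fold between the sections in mesenchymal cells. Of 12 neuron genes, 5 mural genes and 4 macrophage genes 0 were past 2-fold. Of 6 fibroblast and matrix genes 1 was, *Igfbp5*, with a median of −0.08 over that list against 0.41 over all genes. Of the axon guidance and adhesion list 4 of 8 were higher in the KO cells, *Cd24a*, *Epha3*, *Epha6* and *Unc5d*, of which *Epha6* and *Unc5d* rested on 15 and 19 transcripts in control. Higher were also 2 of 9 radial glia and astroglia genes, *Lhx2* and *Eomes*, on 9 and 8 transcripts in control and below the mean blank barcode in both sections, 1 of 4 endothelial genes, *Adgrf5*, and 1 of 3 Cajal-Retzius genes, *Cxcl14*, with 8051 and 19668 CPM and a log2 ratio of 1.29 (1.21 to 1.37). The remaining lists held 1 higher gene each at most, namely *Wnt7b* of 9 growth factor, Wnt and hedgehog genes, *Htr2c* as the only choroid plexus gene, on 7 transcripts in control and below the mean blank barcode in both sections, and *Top2a* of 2 cell cycle genes. *Top2a*, a topoisomerase of dividing cells, stood at 9460 and 20058 CPM, a log2 ratio of 1.08 (1.01 to 1.16). In the other cells outside the outline *Top2a* stood at 10723 CPM in control and 17375 CPM in the KO section. *Ccnd2* stood at 65567 and 52645 CPM, with a log2 ratio of −0.77 at 0 to 100 µm and 0.07 beyond 250 µm. The bone morphogenetic proteins *Bmp4* and *Bmp7* stood at 2509 and 4573 CPM and at 9427 and 12817 CPM.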

How the data were processed

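The authors imaged both sections on a MERSCOPE instrument with a 500-gene panel, decoded the barcodes and segmented the cells, and deposited transcript counts per cell for 500 genes and 50 blank barcodes. Deposited with them were cell centres and volumes, DAPI and poly(T) signal per cell as the authors measured it, and a list of decoded molecules with positions and imaging plane. The software versions behind these files are not given in the sources used here. The tools used on them were pandas (2.3.3), scipy (1.17.1) and numpy (2.4.6) under Python (3.11.15).

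Cells under 20 panel transcripts were dropped, and blank barcodes were left out of the totals. The members and gene lists were chosen with earlier results of these data known. CPM were computed from counts summed over the cells of a section, without the 7 genes of the rule. Genes with at least 50 transcripts in the cells of each section (profile) or of both together (KO over control) were compared at 2-fold. Named genes were the 15 highest and 5 lowest by fold over other cells, the 5 highest and 5 lowest KO over control ratios, and members of the marker lists. Poisson and Clopper-Pearson intervals are at 95%. Cells were thinned to 25 transcripts without replacement. Doublets were not called. The brain outline was drawn on a grid of 10 µm after Gaussian smoothing (SD of 25 µm), with settings chosen after the sections were seen. Narrow strips and parts under 0.3 mm² were removed, and gaps and enclosed areas were filled. The KO over control ratio was run on simulated counts with known fold changes in the chosen cells. The other comparisons were not simulated. Values of 1 gene of the panel are not reported here.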

Additional observations from a re-analysis of the deposited data

How the results depend on the processing

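No paired analysis was possible because each genotype had 1 section. The log2 ratio of the KO over the control share of mesenchymal cells was 0.44. It was 0.94 with a minimum of 10 transcripts, −0.72 with 50, 0.52 and 0.31 with a minimum share of 2% and 5%, 0.89 with 5 counts, 0.25 with the KO counts thinned, 1.30 over all segmented cells, 0.69 outside the outline, and from −0.26 to 1.25 over pairings of section parts split at the median of the long axis. The 95 of 490 genes past 2-fold between the sections became 43 of 353 with KO counts thinned. They became 59 with a gene minimum of 200, which also left fewer genes to compare. The 81 higher and 45 lower genes of the profile became 35 and 16 over endothelial, mural and connective cells and 29 and 14 outside the outline, and the lower became 28 without cells that met another class. By the smaller value of both sections, *Igf2* turned to −0.026 over those classes and −0.053 outside the outline on the log2 scale. Outside the outline the control section kept 1.28 times. *Rxfp3* between the sections turned to 0.65 in a pairing of section parts and to 0.52 at 0 to 100 µm. The neuron-list share around mesenchymal cells was 0.856% and 0.990% in control, and 1.27% and 1.45% in the KO section, at a radius of 25 and 100 µm, and 1.33% with KO counts thinned. The share outside the outline was 99.7% in control with an outline at 30%, and 95.8% and 97.0% in the KO section at 15% and 30%. The log2 ratio of *Dcn* between whole sections was 0.29, with 0.35 over all molecules, 0.54 in plane 0, 2.57 per cell volume and −0.76 to 1.42 over pairings. *Efemp1* had 0.12, with 0.42 in plane 0, 2.40 per volume and −0.77 to 0.83 over pairings. *Osr1* had −0.32, with −0.082 in plane 0, 1.96 per volume and −0.91 to 0.29 over pairings. The cause was not tested. Comparisons by position, outside the outline, without *Igf2* or without cells of another class were chosen after seeing the data. Depth limits the control more than the KO section, with a median segmented cell of 20 against 101 transcripts.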
